A study of Saccharomyces cerevisiae with 16 samples.

Results

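RNA was sequenced from budding yeast, Saccharomyces cerevisiae, that carried either unmodified HRR25 or the hrr25is allele, and the untreated levels of the 2 strains were compared feature by feature. The measure was the log2 ratio of the mean normalised reads in hrr25is cells to that in WT cells, over features with a mean of at least 20 normalised reads in both. Of the 6760 features listed for both strains, 6048 met that minimum. URA3 and HRR25 were then set aside as strain markers, and LEU2 was already under the minimum in WT, which left 6046 features. The series holds 16 samples in 8 groups of 2, and this comparison used 1 group of each strain.

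Both strains lacked the chromosomal HRR25 gene, which a kanMX4 cassette replaced, and both were his3Δ, leu2Δ and ura3Δ. In WT cells the plasmid pRS316-HRR25, which carries a URA3 marker, supplied the unmodified kinase. In hrr25is cells the plasmid pRS315, which carries LEU2, supplied a kinase with the substitutions I82G and I23C, where the number is the codon counted from the start of the protein. The strains therefore differed in allele, plasmid and marker gene together, and the effects of these cannot be told apart here. Cells grew in YPD, a rich medium with glucose, until the OD600 was 0.3, with a temperature of 30°C, and were then kept for 1 hour with DMSO, the solvent of the inhibitors. The table headers give a condition A and a condition B without naming a treatment, and condition A is taken as DMSO throughout. The labels do not say whether the replicates were grown separately, so the error behind each p-value may be technical.

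Hrr25 is the yeast homologue of casein kinase 1 delta and epsilon, a family of protein kinases that act on many substrates and often on sites already primed by phosphorylation. It takes part in the maturation of the small ribosomal subunit, in chromosome segregation at meiosis, in vesicle traffic, in autophagy and in DNA damage responses. Strains with an altered kinase are commonly compared before any inhibitor is added, because an allele or its plasmid can change basal expression.

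The positions altered in the allele are shown because they define the comparison. They are given from the reference assembly R64, build sacCer3, on the plus strand of the HRR25 coding sequence (YPL204W, chromosome XVI, 164276 to 165760), with the codon of the replaced isoleucine in capitals. The sequence of the plasmid alleles was not read here.
HRR25 around the codon of I23C, chrXVI:164312-164374: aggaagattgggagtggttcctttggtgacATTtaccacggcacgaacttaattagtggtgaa
HRR25 around the codon of I82G, chrXVI:164489-164551: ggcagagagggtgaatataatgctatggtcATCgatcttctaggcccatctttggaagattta

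The deposited values were means over the libraries of a condition, and whole reads per library were recovered from them. The 2 WT libraries held 15118440 and 14635620 counted reads and the 2 hrr25is libraries 20135699 and 16815301. They carry no replicate number and are called deeper and shallower. Small nuclear and nucleolar RNAs took 6.47% and 7.70% of reads in the WT libraries and 14.7% and 13.0% in the hrr25is libraries. ORF names without an entry in the reference annotation took 0.183% and 0.138% against 0.335% and 0.262%. Across 363 protein-coding genes with a median of 5 to 50 normalised reads, the median level was 30.4 in the deeper WT library, 13.5 in the shallower one, and 16.1 and 17.9 in the hrr25is libraries. Their part in the results below was not tested. Condition B added 3 distinct libraries. The library of 34122412 reads stood in the condition B means of both strains with equal reads at all 6760 features. It had the markers of WT (URA3 at 32168 normalised reads, LEU2 at 8.68) and was counted once, as WT. The other WT library of condition B, with 9568820 reads, stood apart. Its Pearson r with the other 6 libraries, across features, ran from 0.934 to 0.958, and its median over the 363 quiet genes was 75.7. Results that rest on it are given with and without it.

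The strains had similar levels at most features. The median log2 ratio of means was 0.0045, the quartiles of the 6046 features were -0.18 and 0.22, and 5158 of them, or 85.3%, lay within 0.5 of 0. A log2 ratio above 1 was found for 191 features and one below -1 for 62. The features nearest to the minimum of 20 were a tRNA gene, tD(GUC)J2, at 21.6 in WT and 20.02 in hrr25is, and YIL071W-A at 20.7 and 20.1. Just under it were YPR126C at 19.9 and 23.3 and the tRNA gene tL(UAA)B1 at 19.9 and 20.7.

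Differences were tested with limma on log2(normalised reads + 1) over the 4 libraries, with Benjamini-Hochberg adjustment over all 6760 features, and are called at an adjusted p under 0.05. All log2 differences below are hrr25is minus WT on that scale, with their standard error (SE). Of the 6046 features 61 were higher in hrr25is and 11 lower. Over all 6760 features the call rate was 0.932% higher and 0.192% lower, or 63 and 13 features. With total counted reads as the scaling, the median of all features moved to -0.32 and the calls became 11 higher and 9 lower. The calls numbered 490 without the deeper WT library, 782 without the shallower one, 158 without the shallower hrr25is library, and 88 without the deeper hrr25is library. Both fits without a WT library kept all 76 calls, while 58 were kept without the deeper hrr25is library and 68 without the shallower one. In each of the 72 called features the values of the strains did not overlap, which alone was common: 24.2% of all features lay wholly higher in hrr25is and 20.2% wholly lower. In RNA from a whole culture, fewer cells with a transcript and less of it per cell cannot be told apart.

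**Figure D1:**
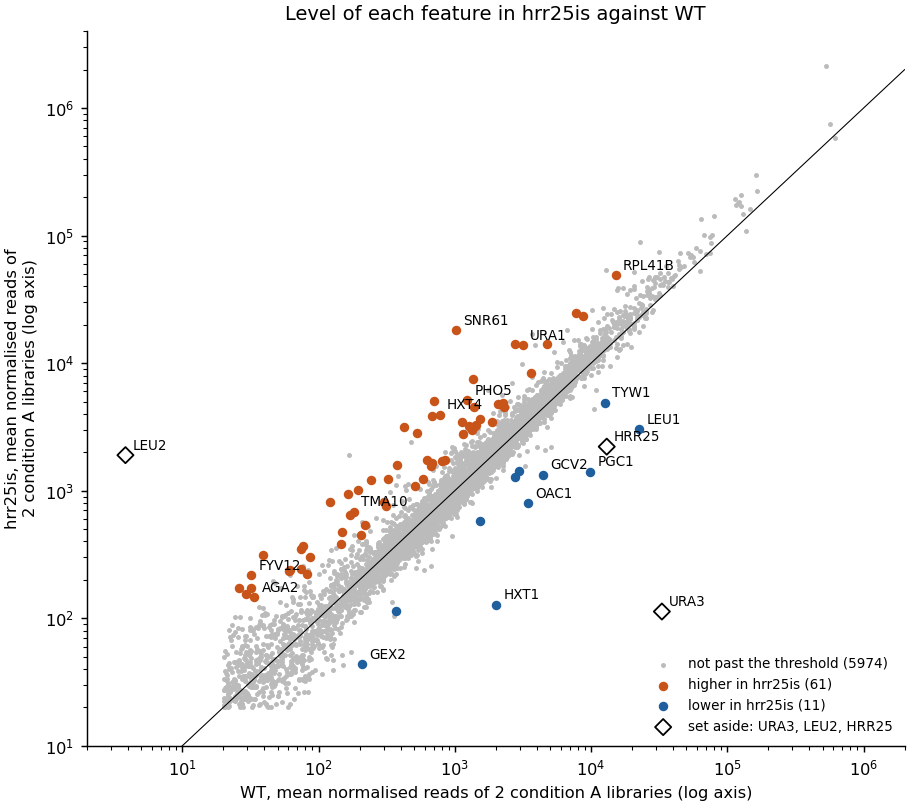
Mean normalised reads of each of the 6046 features in WT (x) and hrr25is (y), condition A, both log axes. Grey points did not pass the threshold, orange (61) were higher and blue (11) lower in hrr25is, and diamonds mark the 3 genes set aside; most points lie on the diagonal, and HXT1 and LEU1 lie far below it.

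The markers matched the labels. URA3 (YEL021W, chromosome V, 116167 to 116970), an enzyme of uracil synthesis, stood at 31344 and 34870 normalised reads in WT and at 114 and 112 in hrr25is. LEU2 (YCL018W, chromosome III, 91324 to 92418), an enzyme of leucine synthesis, stood at 2.25 and 5.41 in WT and at 1961 and 1839 in hrr25is. The strains did not overlap for either gene.

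HRR25 itself was lower in hrr25is, at 2091 and 2339 normalised reads against 12415 and 13657, a log2 difference of -2.56 (SE 0.16, limma adjusted p = 0.00131). The genes PGC1 and TYW1 upstream of it were also called lower. PGC1 (YPL206C, chromosome XVI, 162632 to 163597), a phospholipase that removes phosphatidylglycerol, stood at 9229 and 10576 in WT and at 1421 and 1387 in hrr25is. Its log2 difference was -2.81 (SE 0.16, limma adjusted p = 0.000682). TYW1 (YPL207W, 159909 to 162341), which helps to make wybutosine in tRNA, stood at 12937 and 12421 against 4636 and 5158, a difference of -1.37 (SE 0.17, limma adjusted p = 0.0163). On the other side of HRR25, TPK2, a catalytic subunit of protein kinase A, had a log2 difference of -0.23 (adjusted p = 0.691). AFT2, an iron-responsive activator, had -0.21 (0.703) and YIG1 -1.11 (0.361), so none of the downstream neighbours within 6 kb passed the threshold.

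None of the genes whose lower coordinate lies within 6 kb of that of URA3 passed the threshold. Their log2 differences ran from -0.40 for MMS21, a SUMO ligase, to 0.63 for RPR1, the RNA of nuclear RNase P. Near LEU2, BUD3, DCC1 and NFS1 had differences of 0.49, -0.24 and 0.27 with adjusted p of 0.233, 0.694 and 0.651. The feature tL(CAA)C, named as a tRNA gene in the files, was low in WT and higher in hrr25is, at 2.25 and 5.41 normalised reads in WT and 60.5 and 54.8 in hrr25is. It was called higher (log2 difference 3.68, SE 0.59, limma adjusted p = 0.0413), and is under the minimum in WT. In condition B the WT library held in both tables had 9.84 normalised reads of it, the 9568820-read WT library 147 and hrr25is 150.3. GEX1, a glutathione exchanger and a near copy of GEX2, was, with LEU2 and tL(CAA)C, one of 3 features with a mean of at least 50 in one strain and under 5 in the other. Its mean of 54.8 in WT rests on 1 library, at 107 against 2.70, and it was not called (log2 difference -3.15, adjusted p = 0.435).

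Leucine synthesis held 2 of the 11 lowered features, LEU1 and OAC1. In this pathway Leu1 converts alpha-isopropylmalate to the beta form, which Leu2 then oxidises, Bat1 completes the last step in mitochondria, and Oac1 carries oxaloacetate and alpha-isopropylmalate across the mitochondrial membrane. Leu3 activates several of these genes together with alpha-isopropylmalate. Of 14 listed genes of branched-chain synthesis and uptake, 2 fell, none rose, and the median log2 difference was -0.20. Of the 6046 features 11 fell and 61 rose, with a median of 0.01.

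LEU1 (YGL009C, chromosome VII, 476313 to 478652) stood at 22146 and 22810 normalised reads in WT and at 3085 and 2975 in hrr25is. The log2 difference was -2.89 (SE 0.16, limma adjusted p = 0.000682), and the spread within either strain was small beside it. OAC1 (YKL120W, chromosome XI, 217344 to 218318) stood at 3280 and 3650 against 835 and 756, a difference of -2.12 (SE 0.15, limma adjusted p = 0.00227). BAT1 stood at 8852 and 12230 against 5138 and 3547. Its difference of -1.28 (SE 0.25) missed the threshold with an adjusted p of 0.0721, though its groups did not overlap. ILV3, the dihydroxyacid dehydratase, had -0.82 (adjusted p = 0.117). LEU4 and LEU9, which open the leucine branch, had -0.21 and -0.19, and LEU3 had -0.20, with adjusted p of 0.669, 0.762 and 0.637. BAP3, a permease for branched-chain amino acids, had the highest value of the list at 0.80 (adjusted p = 0.144).

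The core bound by Leu3, CCG and CGG with 4 bases of any kind between them, was searched on both strands of the 500 bases before each start codon. It was found for 8 of the 14 genes, LEU1, LEU9, BAT1, BAT2, ILV2, ILV5, OAC1 and BAP2, and for 188 of 5855 protein-coding genes, or 3.21%. Matches in the genes that differed most are shown in capitals, each 5′ to 3′ on the strand of the gene.
LEU1, minus strand of chrVII:478805-478864, 177 bases before the start codon: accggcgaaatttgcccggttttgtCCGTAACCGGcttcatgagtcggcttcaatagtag
OAC1, plus strand of chrXI:216844-216894, 474 bases before the start codon: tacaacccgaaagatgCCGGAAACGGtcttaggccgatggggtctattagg
BAT1, plus strand of chrVIII:517360-517419, 137 bases before the start codon: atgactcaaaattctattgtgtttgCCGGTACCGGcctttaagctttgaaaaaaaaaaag
LEU1 held a second match 207 bases before its start codon. A match did not go with one level of change: ILV2, ILV5 and BAT2 held the letters too, and their log2 differences were -0.46, -0.17 and 0.31, none past the threshold. Among the 11 lowered features 3 held a match, LEU1, OAC1 and ALD5, and among the 37 raised protein-coding genes AGA2 did.

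Pyrimidine synthesis had 1 raised gene. URA1 (YKL216W, chromosome XI, 25215 to 26159), the dihydroorotate dehydrogenase that works before Ura3, stood at 2660 and 3628 normalised reads in WT and at 17221 and 10486 in hrr25is. The log2 difference was 2.11 (SE 0.27, limma adjusted p = 0.0229), and both hrr25is values lay well above both WT values. Of the 14 listed genes of synthesis and uptake no other passed, and the median was 0.05. FUI1, a uridine permease, had a log2 difference of 0.86 and URA4, the dihydroorotase, 0.81, with adjusted p of 0.115 and 0.114. URA2, which opens the pathway, had 0.46 (adjusted p = 0.488). PPR1, the activator of the URA genes, had -0.36 (adjusted p = 0.395), and URA10 -0.12.

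The core bound by Ppr1, CGG and CCG with 6 bases of any kind between them, stood before URA1, URA4 and FUI1 among these 14 genes and before 161 of the 5855 protein-coding genes, or 2.75%. It stood before LEU1 as well, where its letters can overlap those of the Leu3 core. URA1 held a further match 200 bases before its start codon, which is not shown. For each of the 2 enzyme genes 1 match is shown in capitals, on the strand of the gene.
URA1, plus strand of chrXI:25009-25070, 169 bases before the start codon: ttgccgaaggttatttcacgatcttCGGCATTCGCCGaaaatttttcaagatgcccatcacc
URA4, plus strand of chrXII:963630-963691, 118 bases before the start codon: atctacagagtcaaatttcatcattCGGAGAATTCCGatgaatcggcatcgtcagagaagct

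Hexose transporters, which carry glucose into the cell and are switched by its supply, held HXT1, whose log2 difference was the largest of the called features among the 6046 apart from that of the small nucleolar RNA SNR61. HXT1 (YHR094C, chromosome VIII, 290913 to 292625), the low-affinity transporter used at high glucose, stood at 1787 and 2234 normalised reads in WT and at 86.4 and 170 in hrr25is. Its log2 difference was -4.03 (SE 0.32, limma adjusted p = 0.00358). HXT4 (YHR092C, 287081 to 288811), a higher-affinity transporter whose lower coordinate lies 3832 bases from that of HXT1, moved the other way. It stood at 638 and 913 in WT and at 4512 and 3385 in hrr25is, a difference of 2.35 (SE 0.23, limma adjusted p = 0.00773).

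The other 14 of 16 measured members of the hexose list did not pass, and the list's median was 0.06. HXT2 and HXT3, both abundant, had log2 differences of 0.82 and 0.10 with adjusted p of 0.292 and 0.917. The glucose sensors SNF3 and RGT2 had -0.09 and 0.06, and the regulators STD1 and MTH1 -0.40 and 0.48, none past the threshold. HXT7 stood at 135 and 100 normalised reads in WT and at 252 and 269 in hrr25is, but its difference of 1.16 missed the threshold (adjusted p = 0.0885), and it shares reads with the near-identical HXT6. MIG3, a zinc-finger regulator related to the glucose repressor Mig1, fell from 300 and 445 to 125 and 103, a difference of -1.68 (SE 0.26, limma adjusted p = 0.0371). MIG1 and MIG2 had 0.07 and 0.08.

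Genes used when glucose runs low gave 2 raised members of 30 measured, with a median of -0.02. MDH2, a malate dehydrogenase of gluconeogenesis, stood at 611 and 753 normalised reads in WT and at 1830 and 1439 in hrr25is, a log2 difference of 1.26 (limma adjusted p = 0.0371). ADR1, an activator of such genes, stood at 830 and 870 against 1924 and 1575, a difference of 1.03 (limma adjusted p = 0.0423). In the glycogen and trehalose list 1 of 20 rose. This was GPH1, which releases glucose from glycogen, at 1170 and 1495 against 3190 and 2832, a difference of 1.18 (SE 0.18, limma adjusted p = 0.0342). None of 27 measured genes of glycolysis and fermentation passed, with a median of 0.39.

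Lowered features also included genes of one-carbon metabolism and of mitochondria. GCV2 (chromosome XIII, 637500 to 640604), the P subunit of glycine decarboxylase, stood at 4162 and 4684 normalised reads in WT and at 1106 and 1570 in hrr25is, a log2 difference of -1.74 (SE 0.20, limma adjusted p = 0.0144). The other subunits GCV3 and GCV1 had -1.15 and -0.82, with adjusted p of 0.0608 and 0.185. GCV2 was the only one of 20 genes of purine and one-carbon metabolism to pass, and the median of that list was 0.23. ISU2, a scaffold for iron-sulphur clusters, fell from 1548 and 1520 to 538 and 617, a difference of -1.41 (SE 0.16, limma adjusted p = 0.0141). It was the only one of 30 genes on the iron list to pass, with a median of -0.26. DIC1, the dicarboxylate carrier of mitochondria, had -1.12, and ALD5, a mitochondrial aldehyde dehydrogenase, -1.06, with limma adjusted p of 0.0301 and 0.0471. GEX2, the near copy of GEX1, fell from 260 and 155 to 49.4 and 38.3, a difference of -2.18 (limma adjusted p = 0.0393).

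**Figure D2:**
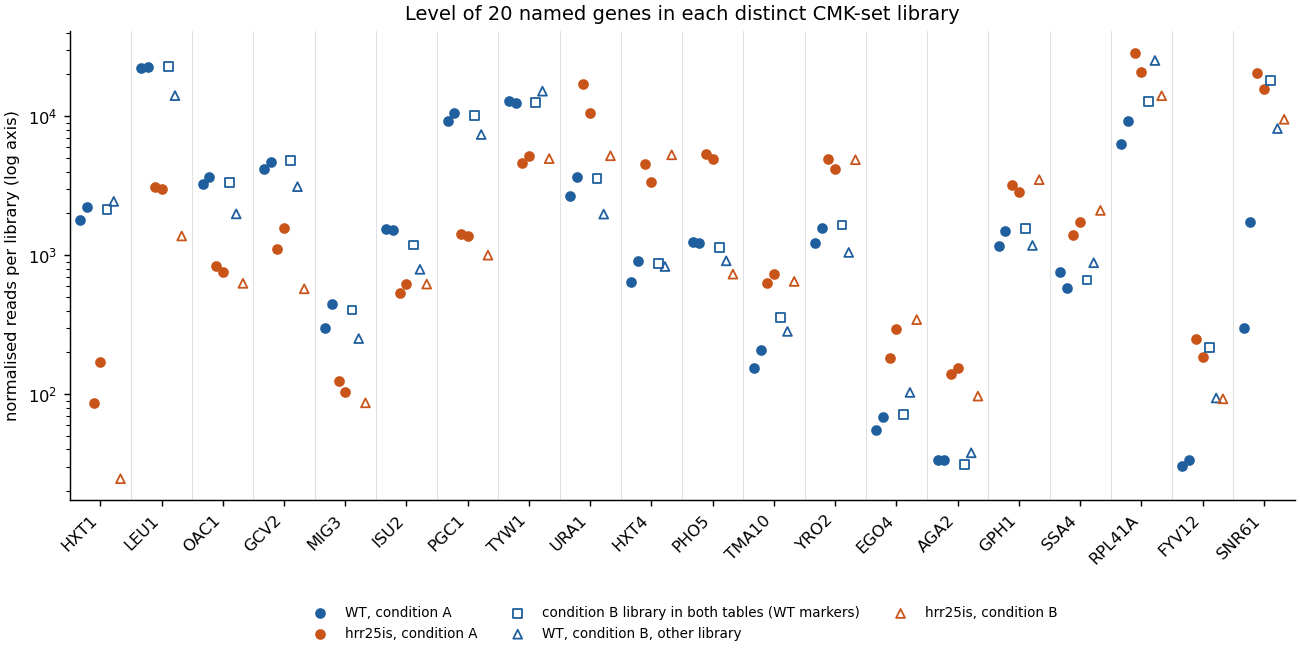
Normalised reads (log axis) of 20 named genes in the 7 distinct libraries of the CMK tables, blue for WT and orange for hrr25is, filled circles for condition A and open symbols for condition B. HXT1, LEU1, OAC1 and GCV2 were low and HXT4 and YRO2 high in all 3 hrr25is libraries; PHO5 was high in condition A only, and SNR61 and FYV12 were lowest in the 2 WT libraries of condition A.

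The phosphate regulon, which yeast turns on when phosphate is scarce, had 1 raised gene among 21 measured and a median of 0.26. PHO5 (YBR093C, chromosome II, 429548 to 430951), the repressible acid phosphatase, stood at 1251 and 1227 normalised reads in WT and at 5353 and 4898 in hrr25is. The log2 difference was 2.05 (SE 0.15, limma adjusted p = 0.00227). PHO89, a sodium-phosphate transporter, had 1.66 (adjusted p = 0.0625) and PHO84, the high-affinity phosphate transporter, 0.42 (adjusted p = 0.503). PHO11 and PHO12, close relatives of PHO5, had 0.57 and 0.56 with adjusted p of 0.302 and 0.239. The letters CACGTG, bound by Pho4 and Cbf1, stood 247 bases before the PHO5 start codon, in capitals below, as they did before 6.2% of all protein-coding genes.
PHO5, minus strand of chrII:431174-431229: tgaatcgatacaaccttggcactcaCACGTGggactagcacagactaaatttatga

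Stress genes rose in part. Of 50 measured genes of the general stress list 3 rose and none fell, with a median of 0.19, and of 29 heat shock chaperone genes 2 rose, with a median of 0.38. TMA10, a stress-induced protein that associates with ribosomes, stood at 154 and 208 normalised reads in WT and at 636 and 732 in hrr25is. Its log2 difference was 1.92 (SE 0.21, limma adjusted p = 0.0134). SSA4, an inducible Hsp70, stood at 761 and 577 against 1409 and 1721, a difference of 1.23 (limma adjusted p = 0.0423). HSP30, a stress protein of the plasma membrane, had 1.25 and BTN2, which sorts misfolded proteins, 1.18, with limma adjusted p of 0.0393 and 0.0361. Common stress genes were not all raised: HSP12 had 0.49 (adjusted p = 0.311) and CTT1, a catalase, -0.21 (0.717). YRO2, a membrane protein related to Hsp30, rose from 1224 and 1561 to 4966 and 4153, a difference of 1.72 (SE 0.18, limma adjusted p = 0.0128). EGO4, a paralogue of the EGO complex subunit Ego2, rose from 55.1 and 68.9 to 183 and 295, a difference of 1.90 (limma adjusted p = 0.0460). The letters AGGGG of the Msn2 and Msn4 element stood before 15 of the 37 raised protein-coding genes, or 40.5%, before 5 of the 11 lowered ones, or 45.5%, and before 34.3% of all protein-coding genes.

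Both strains had the mating genes of alpha cells. The receptor for a-factor, STE3, made by alpha cells, stood at 9049 and 8634 normalised reads in WT and at 10407 and 9402 in hrr25is. The a-factor genes MFA1 and MFA2 were under 20 in WT, and MFA1 stood at 56.8 and 79.1 in hrr25is. Of 5 measured a-specific genes 1 rose and of 4 alpha-specific genes 2 rose. AGA2, the adhesive subunit of a-agglutinin, rose from 33.8 in both WT libraries to 140 and 154, a log2 difference of 2.09 (SE 0.29, limma adjusted p = 0.0299). The alpha-factor genes MF(ALPHA)1 and MF(ALPHA)2 had 1.43 and 1.21, with limma adjusted p of 0.0482 and 0.0329. None of 16 genes of the pheromone response passed, with a median of -0.10.

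None of the lists tied to Hrr25 by known partners, late maturation of the small ribosomal subunit, DNA damage or autophagy held a called gene. In the list of 21 measured partners and substrates of Hrr25 the median was -0.02 and the values ran from -0.70 for REC8, the meiotic cohesin, to 0.55. The other casein kinase 1 genes YCK1, YCK2 and YCK3 had log2 differences of -0.14, 0.07 and -0.15. None of 14 late factors of the small ribosomal subunit, 121 genes of ribosome biogenesis, 23 DNA damage genes or 34 autophagy genes passed. The medians of these 4 lists were -0.01, -0.04, 0.14 and -0.08. Single genes lay further from 0. The DNA damage genes HUG1 and SML1 had 1.43 and 1.13, with limma adjusted p of 0.234 and 0.0523. The autophagy gene ATG41 had 1.84 (limma adjusted p = 0.0992). A p that misses the threshold does not show that the levels were equal; the median SE over all 6046 features was 0.19.

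Cytosolic ribosomal protein genes lay higher on the deposited scale. The median log2 difference was 0.32 over 57 genes of the small subunit and 0.36 over 82 of the large one, with 52 and 77 above 0. Only 3 passed, RPS29A at 1.60 and the near-identical pair RPL41A and RPL41B at 1.68 and 1.69, whose reads may be shared, with limma adjusted p of 0.0317, 0.0391 and 0.0229. With total counted reads the medians became -0.01 and 0.02, and relative to the shift of -0.32 of all features 0.31 and 0.34. In condition B both lists lay below 0, with medians of -0.28 and -0.31, and of -0.59 and -0.64 without the 9568820-read library. Mitochondrial ribosomal protein genes had none called among 67 and a median of -0.22, with 8 above 0.

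Ty elements, the retrotransposons of yeast, had 5 raised genes of 46 measured and none lowered, beside 0.932% and 0.192% of all features. Their median was 0.58. With total counted reads as the scaling it was 0.25, and relative to the shift of -0.32 of all features 0.57. YHR214C-B had the largest difference, 1.60 (limma adjusted p = 0.00568), at 1080 and 1192 normalised reads in WT and 3431 and 3468 in hrr25is. Copies of these elements are nearly identical, so reads may be shared between them. Of 12 COS genes, a subtelomeric family, COS7 and COS1 rose by 1.38 and 1.14, with limma adjusted p of 0.0413 and 0.0393, and these copies are alike as well.

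ORF names without annotation made up 20 of the 61 raised features, small nuclear and nucleolar RNAs 3 and tRNA genes 1. Of 76 small nuclear and nucleolar RNA genes 3 were raised, beside 0.932% of all features, with a median log2 difference of 0.68. With total counted reads as the scaling the median was 0.35, and relative to the shift of -0.32 of all features 0.67. In condition B it was -0.12. SNR61, a guide RNA for ribosomal RNA methylation, stood at 299 and 1735 normalised reads in WT and at 20657 and 15766 in hrr25is, a difference of 4.64 (SE 0.70, limma adjusted p = 0.0361). The WT library held in both tables had 18191, and the other WT library of condition B 8166, so the low values were those of the 2 WT libraries of condition A. SNR67 and SNR79 had differences of 2.62 and 2.35, with limma adjusted p of 0.0364 and 0.0278. FYV12, a short gene of unknown function, had 2.71 (limma adjusted p = 0.0134) at 30.4 and 33.8 against 248 and 186, and in condition B it stood at 215 and 93.9 in the WT libraries, the first being that held in both tables, and at 92.6 in hrr25is.

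Of 267 ORF names without an annotation 20 were raised and none lowered, with a median of 0.41. YML009C-A had the largest difference, 3.05, and YDL228C 2.85, with limma adjusted p of 0.0144 and 0.00394. In condition B the strain difference of 17 of the 20 was below 0, and the median of the 267 was -0.51. Without the 9568820-read library it was below 0 for all 20, and the median was -0.34. The reads on such names took 0.336% of the WT library held in both tables and 0.215% of the hrr25is library of condition B. The strand setting of the read counting is not stated in these sources, so reads of a gene and of one opposite it cannot be told apart. Of 110 tRNA genes 1 rose, tN(GUU)K at 1.43 (limma adjusted p = 0.0490), and their median was 0.41.

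**Figure D3:**
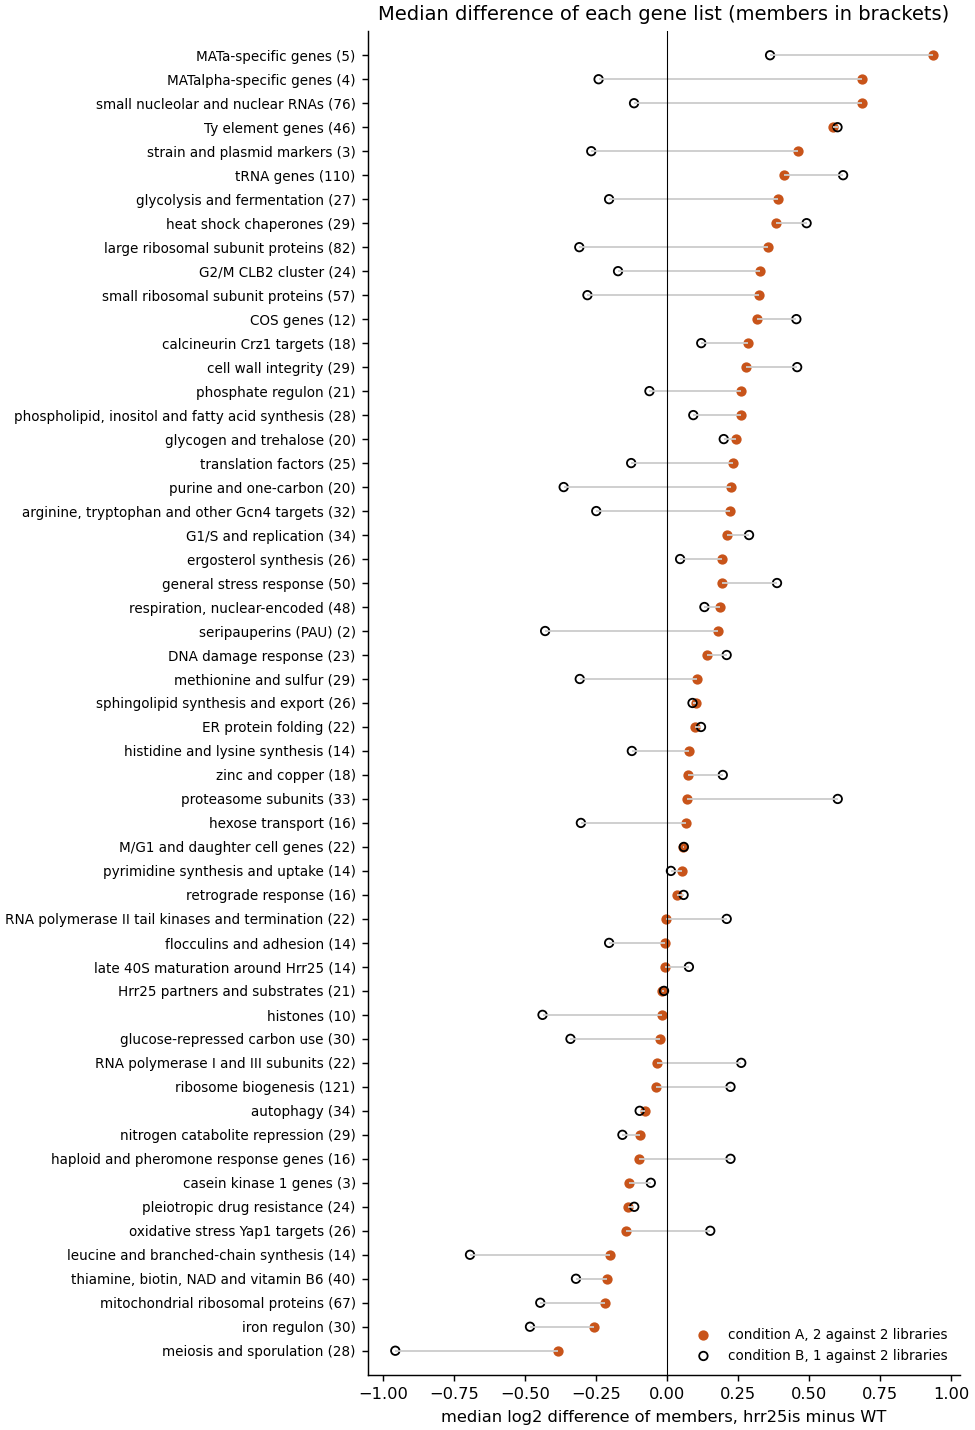
Median log2 difference, hrr25is minus WT, of the measured members of each of 55 gene lists (number of members in brackets), filled for condition A (2 against 2 libraries) and open for condition B (1 against 2). In condition A most medians lay within 0.4 of 0; both cytosolic ribosomal lists lay above 0 in condition A and below 0 in condition B, whereas the Ty and heat shock lists lay above 0 in both.

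The remaining lists held single calls or none. RIB4, which makes a precursor of riboflavin, was the only one of 40 vitamin genes to pass, at 1.19 (limma adjusted p = 0.0340), while the median of that list was -0.21. AGP1, a broad amino acid permease, was the only one of 29 genes under nitrogen repression, at 1.08 (limma adjusted p = 0.0465). No gene passed among 29 methionine and sulfur genes (median 0.11), 33 proteasome genes (0.07), 48 nuclear genes of respiration (0.19) or 26 ergosterol genes (0.19). The same held for 34 genes of G1/S and replication (0.21), 24 of the CLB2 cluster (0.33) and 10 histone genes (-0.02). The meiosis list had the lowest median, -0.38 over 28 genes with none called. Its genes were quiet, and quiet genes were higher in the deeper WT library, as given above. Whether this bears on the median of the list was not tested. HIS3 had a log2 difference of 0.65 (adjusted p = 0.247). LYS2 and MET17 stayed at or under 17.9 and 4.94 normalised reads in all 4 libraries.

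No chromosome stood apart. Over protein-coding genes the median log2 difference per chromosome ran from -0.035 on chromosomes I and XI to 0.034 on chromosome V. Called protein-coding genes lay on 13 of the 16 chromosomes, with 1 to 7 on each of these.

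Condition B offered libraries that had not entered the comparison, 1 of hrr25is and 2 of WT, after what is taken as CMK treatment. With all 7 libraries in one limma fit, the strain contrast in condition B gave 5 features higher and 7 lower in hrr25is, which is 0.074% and 0.104% of the 6760. Of these 12 features 9 were also called in condition A. They were URA3, LEU2 and HRR25 and, beside them, HXT1, LEU1, PGC1, GCV2, HXT4 and ADR1. The log2 difference in condition B was -6.48 for HXT1, -3.70 for LEU1, -3.11 for PGC1, -2.75 for GCV2, 2.63 for HXT4 and 2.24 for ADR1, with limma adjusted p from 0.00301 to 0.0446. The other 3 were CTR2, a copper transporter of the vacuole, ILV3 and YDR042C. Their log2 differences were 3.15, -2.33 and 3.03 in condition B and 0.43, -0.82 and 0.06 in condition A. In normalised reads, LEU1 stood at 22706 and 14090 in the WT libraries of condition B and at 1376 in hrr25is, and HXT1 at 2140 and 2441 against 24.6.

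All 11 lowered features of condition A had a lower value in hrr25is in condition B as well, and 29 of the 37 raised protein-coding genes a higher one. Over the 5574 protein-coding features of the 6046 the median log2 difference in condition B was 0.02. The share of all features that kept their sign was counted neither here nor for the fit below. Without the 9568820-read library, 1 library a strain was left in condition B, assumed to vary like those of condition A. That fit, added after the data were seen, gave 11 features higher and 17 lower, or 0.163% and 0.251%. Of the 72 called features 8 were called there in the same direction, which were HXT1, LEU1, PGC1, OAC1, GCV2, ALD5, HXT4 and ADR1. The ORF name YGL102C was called in the other direction, at 2.05 in condition A and -2.30 in condition B. The signs were as with both libraries for all 11 lowered features, and 28 of the 37 raised protein-coding genes had a higher value. PHO5 had no higher value in either fit: it stood at 1132 and 912 in WT and at 731 in hrr25is, a log2 difference of -0.47, or -0.63 without the 9568820-read library. URA1 kept a higher value, at 5199 against 3571 and 1977. The test of the difference between the strain contrasts of the 2 conditions called no feature with limma, while 353 had an unadjusted p under 0.05. Without the 9568820-read library it called 27, all among the 6046 features, with a strain difference higher in condition A for 23 (0.340% of the 6760) and lower for 4 (0.0592%). Of these 27 features 19 were among the 72 called in condition A, 16 were ORF names without annotation and 10 were protein-coding, PHO5 with them (limma adjusted p = 0.0111). This test therefore depended on that library. The overlap with the 72 calls is partly built in, because the condition A difference behind those calls is 1 term of the test. With strain and condition as terms over the 7 libraries, a fit added after the data were seen, 10 features were higher and 12 lower, or 0.148% and 0.178%. Of the 72 called features 15 passed there, all protein-coding. OAC1 at -2.09, MIG3 at -1.75, YRO2 at 1.78, SSA4 at 1.32 and GPH1 at 1.26 were among them. This fit and the next one include the condition A libraries that gave the 72 calls, so their counts are not an independent check. Over the 6 libraries left without the 9568820-read one, 18 were higher and 14 lower, or 0.266% and 0.207%, and 22 of the 72 passed.

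**Figure D4:**
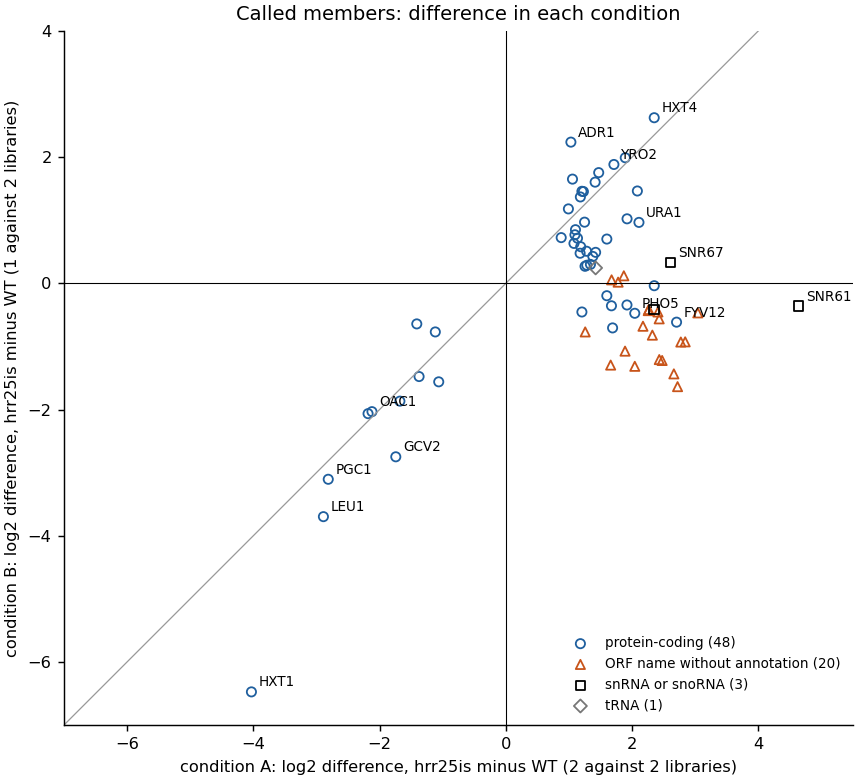
Log2 difference, hrr25is minus WT, of the 72 called features in condition A (x, 2 against 2 libraries) and condition B (y, 1 against 2), with symbols by class and the line of equal values. The 11 lowered features lie below 0 on both axes, and 17 of the 20 ORF names without annotation lie above 0 on x and below 0 on y.

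The strain hrr25as, with I82G alone on the LEU2 plasmid, gave values from separate tables for DMSO-treated cells. These tables were normalised separately, so levels are set side by side in reads per 1000000 reads on protein-coding genes (RPM), with no test. LEU1 stood at 1489 and 1361 RPM in the WT libraries used above, at 158 and 171 in hrr25is and at 278 and 322 in hrr25as. OAC1 stood at 221 and 218, 42.7 and 43.5, and 57.8 and 58.9 RPM in the same order. BAT1 followed the same order of strains, at 595 and 730, 263 and 204, and 239 and 291 RPM. In all 3 genes both LEU2-plasmid strains lay below both WT libraries. Of the 61 raised features 16 lay above both WT libraries in hrr25as, all protein-coding, 29 lay below both, 15 lay between or overlapped and 1 was not listed. Of the 11 lowered features 10 lay below both. Over all 6046 features 17.4% lay above both WT libraries and 44.6% below both. The same WT libraries had entered the calls, so these counts are not an independent check. PGC1 and TYW1 are among the 10, yet other WT libraries, described below, held them at 77.93 and 71.06 and at 187.9 and 186.6 RPM.

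URA1 stood at 179 and 217 RPM in WT, 880 and 604 in hrr25is and 665 and 599 in hrr25as. PHO5 stood at 84.1 and 73.2, 274 and 282, and 271 and 304 RPM. The other DMSO-treated WT libraries, described below, held PHO5 at 183.5 and 189.6 RPM, between these WT and hrr25as values. MIG3 was at 7.20 and 8.70 RPM in hrr25as, near the 6.38 and 5.95 of hrr25is and under the 20.2 and 26.5 of WT. HXT1 was lower in both, at 19.6 and 55.5 RPM in hrr25as against 120 and 133 in WT and 4.42 and 9.77 in hrr25is. GCV2 differed between the 2 altered strains, with 337 and 256 RPM in hrr25as and 56.6 and 90.4 in hrr25is, beside 280 in both WT libraries. HXT4 did as well, with 57.3 and 119 RPM in hrr25as against 231 and 195 in hrr25is. HSP30 stood at 91.8 and 103 RPM in WT, 212 and 184 in hrr25is and 6.06 and 8.70 in hrr25as. RPS29A stood at 254 and 340, 758 and 773, and 212 and 123 RPM in the same order. For these 2 raised genes the hrr25as values lay below both WT libraries, on the other side from hrr25is.

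The libraries labelled WT in the 3MBPP1 table carry the same strain label but not the same marker levels. They held LEU2 at 98.8 and 95.4 RPM and URA3 at 190 and 194, where the WT libraries used above held LEU2 at 0.151 and 0.323 and URA3 at 2107 and 2081. LYS2 was at 87.7 and 96.9 RPM there, against at most 0.454 in the WT libraries used above. HRR25 stood at 222 and 249 RPM, PGC1 at 77.9 and 71.1 and TYW1 at 188 and 187, against 835 and 815, 621 and 631, and 870 and 741. The values of PGC1 and TYW1 there were thus close to or under those of hrr25is, at 72.7 and 79.8 and at 237 and 297 RPM. LEU1 and OAC1, by contrast, were high there, at 1236 and 1014 and at 305 and 335 RPM. So were HXT1, at 125.5 and 119.1, and MIG3, at 34.23 and 38.03 RPM. Raised features went both ways there. RIB4 stood at 168.2 and 182.5, TMA10 at 35.79 and 31.52 and SNR61 at 1014 and 1862 RPM. These were near or above their hrr25is values of 184 and 166.2, 32.52 and 42.15, and 1056 and 907.6. URA1 at 150.5 and 142.8 and HXT4 at 77.8 and 57.88 RPM lay nearer the WT libraries used above. How many went each way was not counted.

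**Figure D5:**
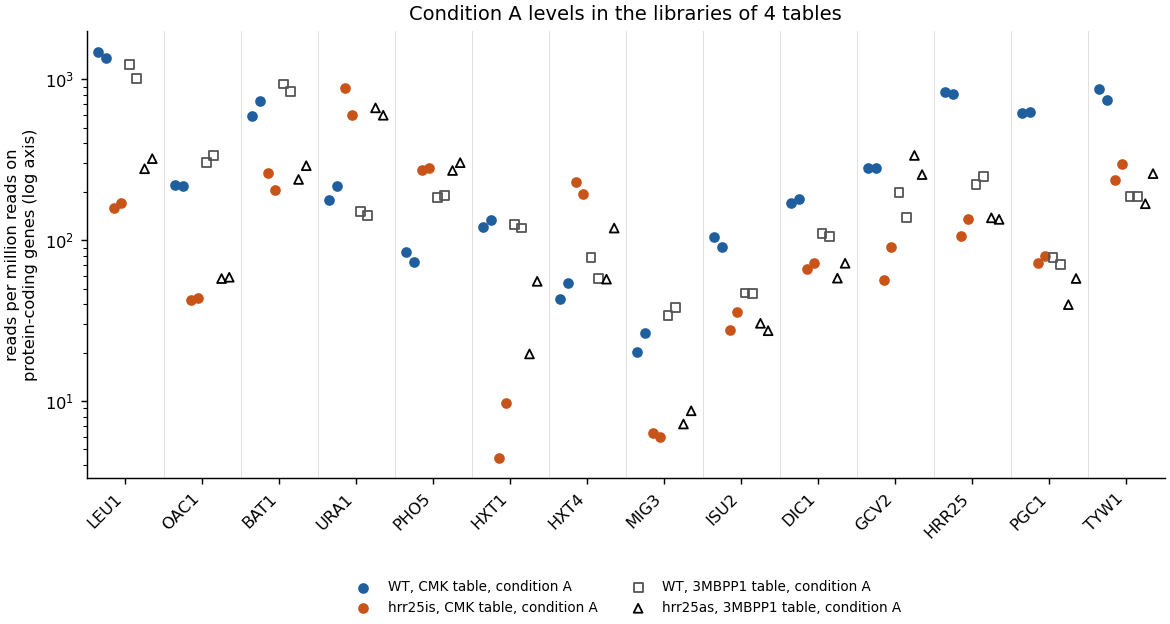
Reads per 1000000 reads on protein-coding genes (log axis) of 14 genes in the condition A libraries of 4 tables, 2 libraries a group, normalised separately between tables. LEU1, OAC1 and BAT1 were low in hrr25is and hrr25as, URA1 was high in both, and HRR25, PGC1 and TYW1 were high only in the WT libraries of the CMK table.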

How the data were processed

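The submitters' processing notes name HTSeq 0.6.0, STAR 2.3.0 and CASAVA 1.8.2 and the build sacCer3. Per the file headers, the authors deposited a mean signal of normalised counts for each condition in each of 4 tables, in the columns of a DESeq comparison. Whole reads per library and size factors were solved from these means, with 1 solution for 100% of means in each column used. Both CMK tables proved to share one joint normalisation by median ratios. limma 3.58.1 in R 4.3.3 (trend and robust moderation) was fitted on log2(normalised reads + 1) of the recovered reads, without a filter on low values. It was also run on simulated data, and the outcome of that run is not given here. Genes picked for naming were the strain markers and neighbours within 6 kb, and the 12 highest and 12 lowest called features with a symbol. Up to 4 called members per list were picked as well, or the 2 largest where none was called. Not all genes picked in this way are printed. Others, such as those of the same pathway or the 15 called over 7 libraries, were named after their values were seen. The members and the 57 gene lists were chosen with earlier results of these data known. 2 lists, mitochondrially encoded genes and 2-micron plasmid genes, had no feature in the tables. Identifiers were matched to the R64 annotation. Depth limits precision by counting error only, and the lowest count of a listed feature was 1 read per library.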

Additional observations from a re-analysis of the deposited data

How the results depend on the processing

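No paired analysis was possible because the WT libraries are numbered 3 and 4 and the hrr25is libraries 1 and 2. Against 76 calls, 20 were made with total counted reads, 8 with the spread shared over 7 libraries, 22 with strain and condition terms over them and 12 in condition B. Without the WT library that stood apart, these last 3 became 81, 32 and 28. The fits with both terms and those without that library were chosen after seeing the data. Leaving out 1 library gave 88 to 782 calls. Size factors over the 4 libraries, both filters, a pseudocount of 5 and voom weights gave 61 to 84. Of 45 named called genes, all that a setting tested kept their direction outside condition B. For several settings this was fixed in advance. The strains did not overlap in any called gene, so leaving out 1 library could not change a direction. The 2 filters, which tested 44 and 39 of them, and the shared spread use the same difference. In condition B 37 kept their direction, with and without the WT library that stood apart. The log2 difference in condition B was -0.47 for PHO5, -0.71 for RPL41B, -0.35 for RPL41A, -0.45 for MF(ALPHA)2, -0.19 for RPS29A, -0.61 for FYV12, -0.36 for SNR61 and -0.41 for SNR79. Without that library it was -0.63 for PHO5, -0.75 for RPL41B, -0.33 for MF(ALPHA)2, -0.71 for RPS29A, -1.21 for FYV12, -0.15 for MF(ALPHA)1, -0.93 for SNR61 and -0.27 for SNR79. The share of all features that kept their direction in condition B was not counted, and the cause was not tested. With 8 calls in the 7-library spread, URA3, LEU2, HRR25, HXT1, LEU1, PGC1, PHO5 and HXT4 remained. With 2 libraries a strain an exact permutation test cannot go below p = 0.333.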
